A study of Mus musculus with 8 samples.

Results

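The B7 family and the checkpoint ligands described here are 10 genes taken by symbol from the 53247 genes of a table of expression in tumor-associated macrophages (TAMs): Cd274, Pdcd1lg2, Cd80, Cd86, Icosl, Cd276, Havcr2, Lgals9, Pvr and Sirpa. No limit on their values was used to pick them, but they were chosen with earlier results of these data known. All 10 genes were among the 13850 that passed the filter on low values. TAMs carrying CD45, CD11b, MHCII and F4/80 were sorted from tumors of LLC (a line of mouse Lewis lung carcinoma grown under the skin), and their mRNA was sequenced. LLC cells were implanted in mice 8 weeks old and the tumors were taken 14 days later, from mice given as 10 weeks old. The hosts were WT mice (4 samples) or miR-21-/- mice (4 samples), both given as C57/BL6. The null allele removes miR-21 from the whole mouse, so T cells, stromal cells and other host cells of those tumors lack it too. The implanted LLC cells were the same line in both groups. The labels call the samples biological replicates, and miR-21-/- replicate 1, titled with 2 numbers joined and not said to be a pool, was counted as 1.

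Membrane proteins of the B7 family sit on macrophages and other antigen-presenting cells and are read by receptors on T cells. CD80 and CD86 costimulate through CD28 and are also bound by the inhibitory receptor CTLA-4, ICOSL costimulates through ICOS, and PD-L1 and PD-L2 inhibit through PD-1. Other checkpoint systems use proteins outside the B7 family, such as galectin-9 and its receptor TIM-3, the poliovirus receptor PVR, which is bound by CD226, TIGIT and CD96, and SIRPA, which receives the inhibitory signal of CD47 on the target of a phagocyte. In tumors these genes are known as points at which macrophages restrain or support T cells. The question was how the mRNA of each gene differed between WT and miR-21-/- TAMs.

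Values are in CPM, counts per 1e+06 reads, and differences are log2 fold changes, miR-21-/- over WT, of log2(CPM + 1), fitted with limma over all 13850 tested genes. The added 1 makes the differences of low genes smaller than their ratios. A gene passed the threshold when its fold change exceeded 1.5, which is 0.58 on the log2 scale, and its p after Benjamini-Hochberg adjustment was not above 0.005. Of all tested genes 986 passed, 400 higher in miR-21-/- TAMs and 586 lower, so that 40.6% of the called genes were higher. That split turned with other settings, to 55.5% higher with a pseudocount of 10, 52.4% with no filter on low values, 59.3% with quantile normalization and 58.4% with rescaling by the median of ratios. The scalings also moved the median of all tested genes from -0.10 to -0.0076 and -0.0098. The depth, read from the steps between low values, ran from 20.2 to 33.4 times 1e+06 reads per library, so that 0.0300 to 0.0495 CPM stood for 1 read. The samples of one genotype correlated at 0.988 to 0.995 over the tested genes and those of different genotypes at 0.970 to 0.981, as a description. Mir21a (chr11:86584067-86584158) is listed at 0.0001 CPM, the floor of the table, in all 8 samples, so these libraries do not check the deletion. Macrophage markers were high in every sample (sums of 9505 to 11365 CPM in WT, 10481 to 13264 CPM in miR-21-/-), as were the 4 genes of the sort (4858 to 6169 CPM and 4369 to 5765 CPM). Of the macrophage markers Fcgr1 was higher in miR-21-/- TAMs (0.75, adjusted p = 0.000561), and the other 7 did not pass. Among those 7, Adgre1, which encodes F4/80 of the sort (-0.38, adjusted p = 0.00140), and Csf1r (-0.48, adjusted p = 0.00538) did not overlap between the groups. In sorted bulk samples, fewer cells that use a gene and less of its RNA per cell cannot be told apart.

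Among the 10 genes, Cd274, Pdcd1lg2 and Cd86 were higher in miR-21-/- TAMs, Icosl was lower, and the other 6 did not pass the threshold. The 4 called genes are 40.0% of the set, against 7.12% of all tested genes, with 3 higher (2.89% of tested genes) and 1 lower (4.23%). As the set was chosen with earlier results of these data known, its shares are a description only. The count was 2 without WT replicate 1 or 3 or miR-21-/- replicate 2 or 4, and 3 without any of the other 4 samples. The groups did not overlap for 6 of the 10 genes, against 35.1% of all tested genes, and 6 had an adjusted p at or under 0.05 whatever the fold change, against 36.0%. The median log2 fold change of the 10 genes was 0.16, with 6 above 0 and 4 below, and that of all tested genes was -0.10. Without its sign the median was 0.45 for the set and 0.19 for all tested genes.

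**Figure D1:**
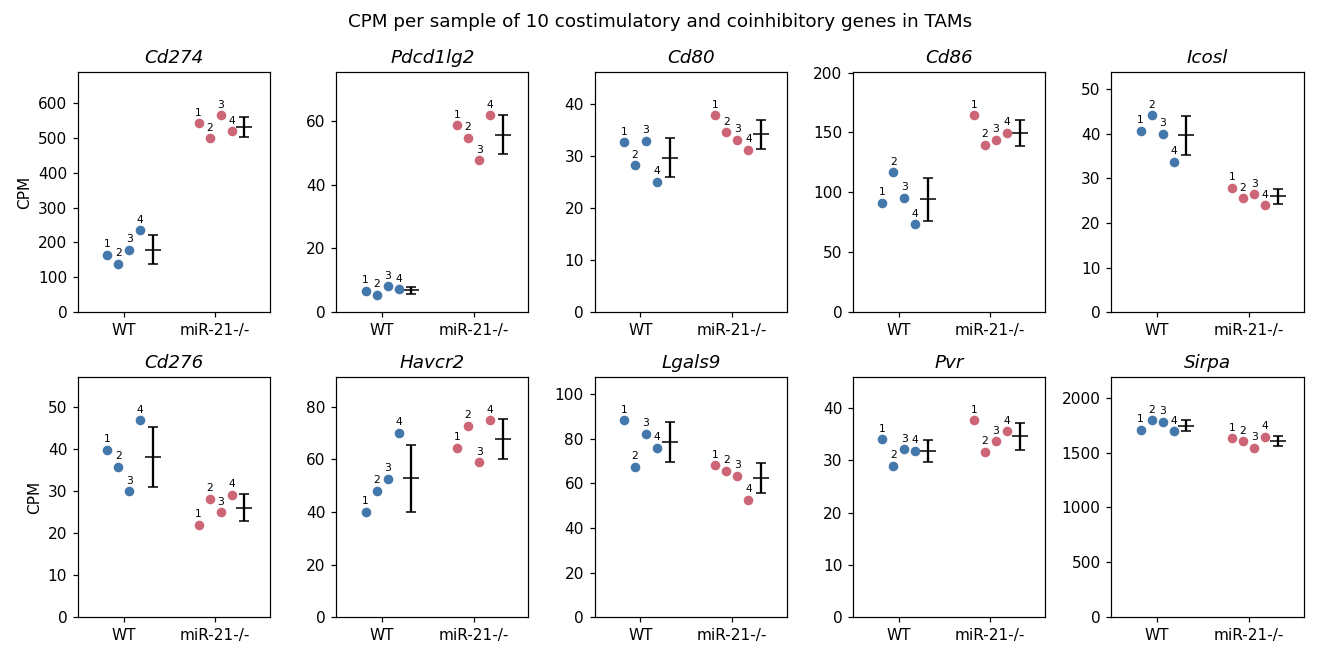
CPM (vertical axes, from 0, a scale for each gene) of the 10 genes in each of the 4 WT (blue) and 4 miR-21-/- (red) samples, numbered by replicate, with the mean and SD as a bar beside them. The groups stand far apart for Cd274 and Pdcd1lg2, are close but separate for Cd86, Icosl, Cd276 and Sirpa, and overlap for Cd80, Havcr2, Lgals9 and Pvr.

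miR-21a-5p binds its targets through bases 2 to 8, and its mature sequence and the sites for it in the 10 genes are printed because miR-21 is what the null hosts lack. The sequence is from RefSeq (GRCm38.p6, chr11:86584120-86584141, minus strand), with the seed in capitals.
miR-21a-5p: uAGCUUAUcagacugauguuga
Taking for each gene its longest 3′ UTR in GENCODE vM21, the letters searched on the transcript strand were ATAAGCTA (8 bases), the same without its first or its last base (7 bases) and the same without both (6 bases), counted once by the longest match. Cd80 alone of the 10 genes held any, one of 7 bases at base 449 and one of 6 bases at base 1622 of a 3′ UTR of 1896 bases. The stretches are shown with the matched letters in capitals, at chr16:38494880-38494901 and chr16:38496053-38496074, plus strand.
Cd80 site of 7 bases: tccaggtgTAAGCTAtggcact
Cd80 site of 6 bases: gggggaagTAAGCTgcagcatt
Both lie beyond the end of the Cd80 gene as the deposited table gives it (38486933), so the table's model of Cd80 does not hold them. Of the 11443 tested genes with a 3′ UTR, 12.4% held a site of 7 or 8 bases and 26.5% held any of the letters. Cd274, Pdcd1lg2, Cd86 and Icosl, the 4 genes past the threshold, had none of these letters in 3′ UTRs of 2683, 669, 1493 and 1622 bases. That says only that these letters are not in these windows.

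Cd274, which encodes PD-L1, and Pdcd1lg2, which encodes PD-L2, had the largest differences of the 10 genes. Cd274 (ENSMUSG00000016496, chr19:29367455-29388095, plus strand, mm10) was at 165, 139, 179 and 235 CPM in WT replicates 1 to 4 and at 541, 498, 565 and 519 CPM in miR-21-/- replicates 1 to 4. Every miR-21-/- sample was far above every WT sample, of which replicate 4 was the highest. The means were 180 ± 40.5 and 531 ± 28.6 CPM (SD, n = 4 each), a ratio of 2.95. The log2 fold change was 1.58 (SE 0.13, 95% interval 1.29 to 1.88, limma adjusted p = 3.49e-05), the 71st highest of the tested genes.

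Pdcd1lg2 (ENSMUSG00000016498, chr19:29410919-29471157, plus strand) was at 6.69, 5.51, 8.06 and 7.13 CPM in WT TAMs and at 58.6, 54.7, 47.6 and 61.8 CPM in miR-21-/- TAMs. It was low in every WT sample and several times higher in every miR-21-/- sample. These values stand for 159 to 200 reads in WT and 1240 to 1869 reads in miR-21-/- libraries. The mean rose from 6.85 ± 1.06 to 55.7 ± 6.12 CPM, a ratio of 8.13. The log2 fold change of 2.86 (SE 0.11, 95% interval 2.61 to 3.10, limma adjusted p = 7.10e-07) was the 6th highest of the tested genes.

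Cd274 stayed above Pdcd1lg2 in all 8 samples, per kb of exons as well, but the distance between them was smaller in miR-21-/- TAMs. Within a sample, Cd274 CPM was 24.7, 25.3, 22.2 and 33.0 times Pdcd1lg2 CPM in WT replicates 1 to 4 and 9.23, 9.11, 11.9 and 8.39 times in miR-21-/- replicates 1 to 4. The groups did not overlap. On the log2(CPM + 1) scale the balance Pdcd1lg2 minus Cd274 moved from -4.51 ± 0.24 to -3.23 ± 0.21 (SD, n = 4 each), a difference of 1.27 (exact permutation test over 70 splits, two-sided, p = 0.0286, adjusted over 3 balances p = 0.0429, the raw p being the smallest this design allows). With a pseudocount of 10 in place of 1 the difference was 0.43 and p = 0.0571 by the same exact test. Per kb of exons the means were 3.49 CPM for Pdcd1lg2 and 49.6 CPM for Cd274 in WT TAMs, and 28.4 and 147 CPM in miR-21-/- TAMs.

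The deposited coordinates put these genes side by side on chromosome 19, with 22823 bases between the end of Cd274 and the start of Pdcd1lg2. Jak2 (chr19:29251828-29313080, named after its values were seen), the kinase used by the IFN-γ receptor, lies upstream and had 69.7 ± 3.20 CPM in the WT group against 97.1 ± 6.09 CPM without miR-21, a log2 fold change of 0.47 (adjusted p = 0.000348) that was under the fold change limit. Insl6 (chr19:29321344-29325356), an insulin-like gene, was low and higher in miR-21-/- TAMs (1.72 ± 0.62 and 4.17 ± 0.63 CPM, 0.95, adjusted p = 0.00303). The call of Insl6 was lost with a pseudocount of 0.1 or 10, with no filter, and without WT replicate 3 or any of miR-21-/- replicates 1 to 3 (adjusted p of 0.00680 to 0.0106 in these 4 fits). Plgrkt (chr19:29348599-29367390), which encodes a plasminogen receptor and ends just before Cd274 begins, was at 47.0 ± 2.22 and 51.8 ± 1.92 CPM (0.14, adjusted p = 0.0713) and did not pass.

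On the other side of Pdcd1lg2, A930007I19Rik (chr19:29486355-29523159) was at 2.76 ± 0.45 and 8.40 ± 0.72 CPM (1.32, adjusted p = 3.32e-05, and 0.53 with a pseudocount of 10). Ric1 (chr19:29522282-29606829) was at 75.9 ± 4.94 and 122 ± 4.25 CPM (0.68, adjusted p = 3.87e-05). Both passed the threshold, and they overlap on opposite strands, so that reads could be shared between them where the counting did not use strand. Of the neighbors taken by position, Insl6, A930007I19Rik and Ric1 were higher, beside 2.89% of all tested genes, and Plgrkt, the closest to Cd274, did not pass. Jak2, named after its values were seen, is not counted among them.

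The promoters of Cd274 and Pdcd1lg2 are shown because these neighbors rose together. They are from RefSeq (GRCm38.p6), 250 bases before to 50 after the start, at chr19:29367188-29367487 and chr19:29410669-29410968, plus strand, with any match to the motifs of STAT and interferon factors below in capitals.
Cd274: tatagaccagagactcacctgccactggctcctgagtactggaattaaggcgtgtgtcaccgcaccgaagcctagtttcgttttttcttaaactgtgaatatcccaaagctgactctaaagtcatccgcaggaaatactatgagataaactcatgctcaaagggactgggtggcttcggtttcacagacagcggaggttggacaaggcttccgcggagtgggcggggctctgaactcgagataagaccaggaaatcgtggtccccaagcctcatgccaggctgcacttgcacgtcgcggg
Pdcd1lg2: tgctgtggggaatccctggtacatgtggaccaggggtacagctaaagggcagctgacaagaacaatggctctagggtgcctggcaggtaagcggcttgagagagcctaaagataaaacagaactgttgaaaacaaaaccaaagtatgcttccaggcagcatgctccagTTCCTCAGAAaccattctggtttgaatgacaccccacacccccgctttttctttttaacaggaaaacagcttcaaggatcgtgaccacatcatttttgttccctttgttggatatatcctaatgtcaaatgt
Searched on both strands were the GAS letters TTCNNNGAA (in 8.30% of 32851 promoters of this length), the STAT6 letters TTCNNNNGAA (6.95%), the interferon response letters GAAANNGAAA (3.44%), the NF-κB letters GGGNNNNNCC (50.8%) and TATAAA (13.6%). The Pdcd1lg2 promoter held TTCCTCAGAA, a STAT6 match, from base -82 and GGGGAATCCC, an NF-κB match, from base -244 counted from the start. The Cd274 promoter held none of the 5, and neither did that of Havcr2. Of the 10 genes, 7 had an entry among the promoters. Lgals9 held the interferon response letters at bases -55 (TTTCTTTTTC) and 16 (TTTCTGTTTC) and NF-κB letters at -129, while Cd80, Icosl and Cd276 held NF-κB letters at 2, 2 and 9 places, those of Cd276 in part overlapping each other, and Cd80 also the TATA letters. Cd86, Pvr and Sirpa were not matched. A match is a description of the letters and not a binding site.

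**Figure D2:**
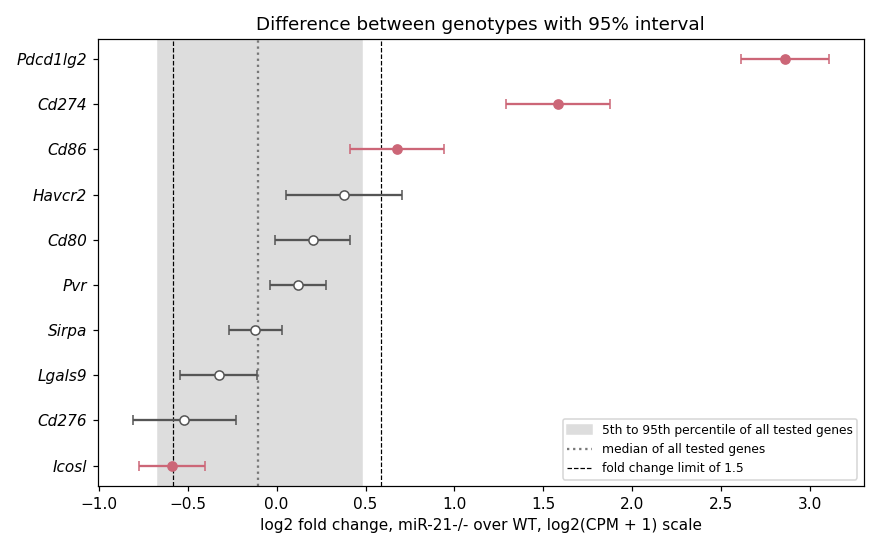
Log2 fold change, miR-21-/- over WT, of the 10 genes (points, red where past the threshold) with the 95% interval as a bar. The gray band spans the 5th to 95th percentile of all tested genes (-0.67 to 0.48), the dotted line is their median and the dashed lines are the fold change limit of 1.5. Pdcd1lg2, Cd274 and Cd86 lie to the right of the band, and Icosl and Cd276 lie inside it near its left edge.

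Cd86 rose and Cd80 did not pass, although their proteins share the receptors CD28 and CTLA-4. Cd86 (ENSMUSG00000022901, chr16:36603869-36666081, minus strand) was at 91.1, 117, 95.7 and 73.4 CPM in WT replicates 1 to 4 and at 164, 139, 144 and 150 CPM in miR-21-/- replicates 1 to 4. All miR-21-/- samples were above the highest WT sample, replicate 2. The means were 94.2 ± 17.8 and 149 ± 10.9 CPM, a ratio of 1.59, with a log2 fold change of 0.68 (SE 0.12, 95% interval 0.41 to 0.94, limma adjusted p = 0.00208). The call depended on the samples used. It was kept without WT replicate 2 and lost when any of the other 7 samples was left out, with an adjusted p of 0.00518 to 0.00689 in 6 of these fits and a log2 fold change of 0.56, under the limit, without WT replicate 4. It was also lost with no filter on low values (0.68, adjusted p = 0.0129).

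Cd80 (ENSMUSG00000075122, chr16:38458933-38486933, plus strand), 1793 kb from Cd86, was at 32.6, 28.2, 32.9 and 25.0 CPM in WT TAMs and at 37.8, 34.5, 33.1 and 31.2 CPM in miR-21-/- TAMs. The groups overlapped, with WT replicates 1 and 3 above miR-21-/- replicate 4. The difference was 0.20 (SE 0.095, 95% interval -0.0092 to 0.41, adjusted p = 0.122). GENCODE vM21 gives Cd80 a longer model (38455561 to 38496335) than the table, which limits any level of Cd80 per length.

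The balance Cd80 minus Cd86 was -1.62 ± 0.26 in WT and -2.10 ± 0.10 in miR-21-/- TAMs. Its values were -1.45, -2.01, -1.51 and -1.52 in WT replicates 1 to 4 and -2.09, -1.98, -2.09 and -2.23 in miR-21-/- replicates 1 to 4. WT replicate 2 lay among the miR-21-/- samples and the other 3 WT samples lay above them. The difference of -0.47 did not reach the limit in the exact permutation test (two-sided p = 0.0571, the same after adjustment over the 3 balances). Without WT replicate 2, the sample that overlapped, it was -0.60 with an exact p of 0.0286, the smallest that the remaining samples allow. The exact p was 0.0571 to 0.0857 when any of the other 7 samples was left out and 0.114 with quantile normalization (-0.40). With a pseudocount of 10 the difference was -0.47 with an exact p of 0.0286.

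Dendritic cells also carry CD86 and PD-L2, and how many of them passed the sort was not measured here. Their 8 marker genes summed to 27.3 to 43.6 CPM in WT and 28.1 to 47.8 CPM in miR-21-/- samples, which overlap, and none of the 8 passed the threshold. Of the 8 log2 fold changes 2 were above 0 and 6 below, with a median of -0.35. The markers named here were chosen after their values were seen. Above 0 were Clec9a (2.54 ± 0.19 and 8.18 ± 4.29 CPM, 1.26, adjusted p = 0.00532) and Xcr1 (3.54 ± 2.40 and 9.61 ± 7.95 CPM, 1.06, adjusted p = 0.117), and the lowest were Cd209a (2.62 ± 2.15 and 0.396 ± 0.511 CPM, -1.28, adjusted p = 0.0187) and Fscn1 (18.7 ± 3.67 and 11.3 ± 2.98 CPM, -0.69, adjusted p = 0.0146). Cd209a passed the filter on low values only through its WT values, so nothing is drawn from its difference. The count below 0 and the median of this list rest in part on that group. The part of dendritic cells in the levels of Cd86 and Pdcd1lg2 was not tested. Near Cd86, 2010005H15Rik was higher in miR-21-/- TAMs (0.704 ± 0.070 and 2.22 ± 0.21 CPM, 0.92, adjusted p = 0.000162, and 0.19 with a pseudocount of 10). This gene passed the filter on low values only through its miR-21-/- values, so nothing is drawn from its call. It belongs to a family of close paralogs that may share reads. Gm5483 (0.10, adjusted p = 0.605), Slc15a2 (0.92, adjusted p = 0.201) and Iqcb1 (-0.15, adjusted p = 0.297) did not pass.

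Icosl, the ligand of ICOS, was the only one of the 10 genes called lower. Icosl (ENSMUSG00000000732, chr10:78069302-78083913, plus strand) was at 40.6, 44.2, 40.0 and 33.7 CPM in WT TAMs and at 27.9, 25.5, 26.5 and 24.0 CPM in miR-21-/- TAMs. Every miR-21-/- sample was below every WT sample. The means were 39.6 ± 4.35 and 26.0 ± 1.65 CPM, with a log2 fold change of -0.59 (SE 0.084, 95% interval -0.77 to -0.40, limma adjusted p = 0.000713), just past the fold change limit. It was under that limit with a pseudocount of 10 (-0.46), with rescaling by the median of ratios (-0.49), with quantile normalization (-0.51), and without WT replicate 1 (-0.57), 2 (-0.53) or 3 (-0.58) or miR-21-/- replicate 2 (-0.58) or 4 (-0.55), with adjusted p-values of 0.000859 to 0.00302 in these fits.

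B cells also carry ICOSL, and how many of them passed the sort was not measured here. The 5 B cell markers summed to 11.4 to 17.6 CPM in WT and 3.84 to 11.3 CPM in miR-21-/- samples, without overlap, and Cd79b, the single one that was tested, was lower (12.7 ± 2.80 and 4.03 ± 1.15 CPM, -1.45, adjusted p = 0.000375). Their part in the level of Icosl was not tested. Neither Pfkl, Dnmt3l, D10Jhu81e nor Pwp2, the genes beside Icosl, passed the threshold (-0.32 to 0.29, the lowest being D10Jhu81e with an adjusted p of 0.0227).

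Cd276 encodes B7-H3, a B7 protein whose receptor is not settled, and it was lower without passing the threshold. Cd276 (ENSMUSG00000035914, chr9:58524298-58555437, minus strand) was at 39.8, 35.8, 30.01 and 46.8 CPM in WT TAMs and at 22.0, 28.3, 25.0 and 29.2 CPM in miR-21-/- TAMs. The groups did not overlap, and WT replicate 3 lay just above miR-21-/- replicate 4. The difference was -0.52 (SE 0.13, 95% interval -0.81 to -0.23, adjusted p = 0.0123). Fibroblasts are known to carry B7-H3 and lack CD45, one of the markers of the sort. RNA of fibroblast markers was still present in these samples. The 5 fibroblast markers summed to 60.3 to 136 CPM in WT and 9.89 to 44.0 CPM in miR-21-/- samples without overlap, and 3 of the 5 were called lower, Col1a1 (22.7 ± 8.80 and 4.53 ± 4.38 CPM), Col3a1 (36.4 ± 15.5 and 6.995 ± 7.54 CPM) and Pdgfra (15.7 ± 4.88 and 3.45 ± 1.04 CPM). Their part in the level of Cd276 was not tested. Cd276 overlaps Gm10657, whose mean was 0.136 CPM.

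Havcr2, which encodes the receptor TIM-3, and Lgals9, which encodes its ligand galectin-9, lay on opposite sides of 0 and neither passed the threshold. Havcr2 (ENSMUSG00000020399, chr11:46454935-46481255, plus strand) was at 40.2, 48.1, 52.5 and 70.0 CPM in WT TAMs and at 64.4, 72.8, 58.8 and 74.7 CPM in miR-21-/- TAMs (0.38, SE 0.15, 95% interval 0.052 to 0.70, adjusted p = 0.0684). WT replicate 4 lay among the miR-21-/- samples, and the other 3 WT samples lay below them. Lgals9 (ENSMUSG00000001123, chr11:78962974-78984946, minus strand) was at 88.2, 67.5, 82.2 and 76.0 CPM in WT TAMs and at 68.1, 65.5, 63.2 and 52.8 CPM in miR-21-/- TAMs (-0.33, SE 0.097, 95% interval -0.54 to -0.11, adjusted p = 0.0261). Here WT replicate 2 lay within the miR-21-/- range. Both genes are on chromosome 11 with Mir21a, Lgals9 at 7599 kb and Havcr2 at 40103 kb from it.

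Set against each other in a sample, the genes separated the groups. Lgals9 CPM was 2.20, 1.40, 1.56 and 1.09 times Havcr2 CPM in WT replicates 1 to 4 and 1.06, 0.901, 1.08 and 0.706 times in miR-21-/- replicates 1 to 4. The gap was narrow, since WT replicate 4 stood beside miR-21-/- replicate 3. On the log2(CPM + 1) scale the balance Havcr2 minus Lgals9 moved from -0.59 ± 0.41 to 0.12 ± 0.28 (SD, n = 4 each), a difference of 0.70 (exact permutation test, two-sided p = 0.0286, adjusted over 3 balances p = 0.0429). Leaving out any of the miR-21-/- samples gave differences of 0.58 to 0.77 and an exact p of 0.0571, above the limit.

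**Figure D3:**
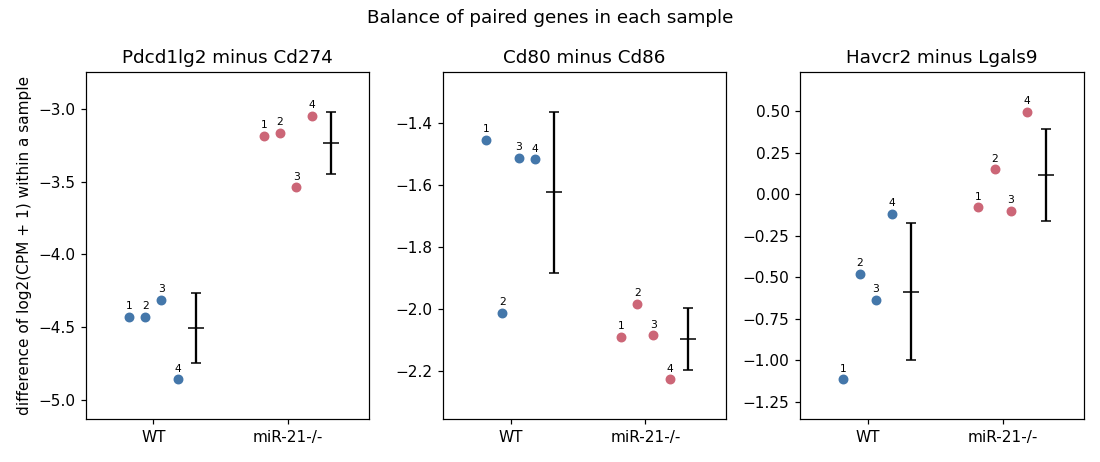
Difference of log2(CPM + 1) between paired genes in each of the 4 WT (blue) and 4 miR-21-/- (red) samples, numbered by replicate, with mean and SD, on axes that do not start at 0. The groups are apart for Pdcd1lg2 minus Cd274 (difference 1.27), adjoin for Havcr2 minus Lgals9 (0.70), and overlap for Cd80 minus Cd86 because of WT replicate 2.

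Pvr, the ligand of CD226, TIGIT and CD96, was close to the same level in the groups. Pvr (ENSMUSG00000040511, chr7:19903578-19921160, minus strand) was at 34.1, 29.0, 32.1 and 31.9 CPM in WT TAMs and at 37.7, 31.6, 33.6 and 35.6 CPM in miR-21-/- TAMs, and the ranges overlapped. The 95% interval of its log2 fold change of 0.12 (SE 0.071) ran from -0.038 to 0.28 (adjusted p = 0.211), which leaves out changes of the size of the threshold. Pvr overlaps Gm16184 and Gm16251, whose means were 0.656 and 0.0309 CPM.

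Sirpa, the receptor of CD47, was the highest of the 10 genes by CPM, and also per kb of exons. Sirpa (ENSMUSG00000037902, chr2:129592835-129632228, plus strand) was at 1706, 1792, 1781 and 1693 CPM in WT TAMs and at 1630, 1603, 1543 and 1643 CPM in miR-21-/- TAMs. All miR-21-/- samples were below all WT samples, and the spread within groups was small (1743 ± 50.7 and 1605 ± 44.3 CPM). The difference was -0.12 (SE 0.068, 95% interval -0.27 to 0.032, adjusted p = 0.197), close to the median of all tested genes. Other scalings moved it to -0.28 (quantile normalization) or to -0.014 (median of ratios). Cd47, whose product SIRPA binds, was at 277 ± 20.8 and 271 ± 18.5 CPM (-0.03, adjusted p = 0.756, and 0.07 after rescaling by the median of ratios). Sirpa has close paralogs with which it may share reads, and of these Gm9733 was lower (10.4 ± 1.61 and 4.36 ± 0.40 CPM, -1.08, adjusted p = 0.000156, and -0.50 with a pseudocount of 10).

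Per length, the order of the 10 genes differed between the genotypes, with Pdcd1lg2 moving the most places. In CPM per kb of exons (GENCODE vM21), WT TAMs had Sirpa at 355 ± 10.3, followed by Cd274 at 49.6 ± 11.2, Lgals9 at 36.7 ± 4.14, Cd86 at 25.7 ± 4.85 and Havcr2 at 19.4 ± 4.64. Lower were Cd276 at 10.4 ± 1.93, Icosl at 8.58 ± 0.94, Cd80 at 8.01 ± 1.02, Pvr at 5.19 ± 0.34 and Pdcd1lg2 at 3.49 ± 0.54. From Cd274 to Havcr2 each gene's range overlapped the next one's, as did those of Cd276, Icosl and Cd80. Sirpa stood apart at the top, and Pvr and Pdcd1lg2 each stood apart at the bottom.

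In miR-21-/- TAMs, per kb of exons, Sirpa at 327 ± 9.01 was followed by Cd274 at 147 ± 7.89 and Cd86 at 40.8 ± 2.98, which did not overlap with their neighbors. Lgals9 (29.2 ± 3.16), Pdcd1lg2 (28.4 ± 3.12) and Havcr2 (24.9 ± 2.72) overlapped in that order, Cd80 stood alone at 9.22 ± 0.75, and Cd276 (7.14 ± 0.89), Pvr (5.66 ± 0.42) and Icosl (5.62 ± 0.36) overlapped at the bottom. Pdcd1lg2 thus moved from the last place to the 5th and Icosl from the 7th to the last. The place of Cd80, and so that of Icosl next to it in WT TAMs, is uncertain. The length used for Cd80 is from a longer model than that of the deposited values.

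The spread between samples was larger in WT than in miR-21-/- TAMs for 9 of the 10 genes, all but Pvr. The coefficient of variation ran from 2.91% to 24.0% in WT and from 2.76% to 12.5% in miR-21-/- samples. Over all tested genes it was larger in WT for 54.9%. WT replicates 2 and 4 each gave the highest or lowest WT value in 7 of the 10 genes, as they did in 43.5% and 57.9% of all tested genes. WT replicate 4 was highest for Cd274, Cd276 and Havcr2 and lowest for Cd80, Cd86, Icosl and Sirpa.

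The related genes were read as 12 lists of 93 genes, of which 76 were tested, 9 were higher, 2 were lower and 65 did not pass, beside 2.89% of all tested genes higher and 4.23% lower. The 9 include Ido1, which was tested only because of its miR-21-/- values. Of the 9 tested IFN-γ signalling genes, 2 were higher and 1 was lower (median 0.34). Irf1, a transcription factor induced by IFN-γ, was at 111, 103, 126 and 144 CPM in WT and at 447, 376, 327 and 353 CPM in miR-21-/- TAMs (1.63, adjusted p = 1.61e-05). The groups did not overlap. Socs1, an inhibitor that interferon induces, was at 5.18 ± 1.09 and 26.2 ± 5.36 CPM (2.14, adjusted p = 1.66e-05), while Ifngr1, a chain of the receptor, was lower (256 ± 26.6 and 154 ± 11.3 CPM, -0.72, adjusted p = 0.000195).

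Of the 8 tested IL-4 and GM-CSF signalling genes, Il4ra, a receptor chain of IL-4 (473 ± 74.5 and 792 ± 71.4 CPM, 0.75, adjusted p = 0.00119, and 0.00868 with no filter on low values), and Il2rg, the common γ chain (188 ± 5.81 and 311 ± 14.7 CPM, 0.72, adjusted p = 1.63e-05), were higher, and the list's median was 0.0077. In the TNF family costimulatory list, 1 of 5 was higher, the costimulatory receptor gene Cd40 (21.9 ± 1.67 and 37.1 ± 4.11 CPM, 0.73, adjusted p = 0.000232, and 0.56 with a pseudocount of 10). Of the 5 tested tryptophan and adenosine checkpoint genes 3 were higher, with a median of 0.67. Ido1, among these 3, passed the filter on low values only through its miR-21-/- values, so this count and median rest in part on that group. Entpd1, which encodes the ectonucleotidase CD39, was at 285 ± 22.0 and 452 ± 12.1 CPM (0.67, adjusted p = 7.53e-05). Ido1, a tryptophan-degrading enzyme, was low, at 0.0335, 0.0001, 0.297 and 0.598 CPM in WT and 1.16, 1.59, 1.42 and 2.18 CPM in miR-21-/- TAMs (1.08, adjusted p = 0.00146), with WT replicates 1 and 2 at no more than 1 read. Since the values of the group where Ido1 is high decided that it was tested, nothing is drawn from its call. A pseudocount of 10 made the difference of Ido1 0.18, and the adjusted p was 0.00786 with no filter, 0.00533 without WT replicate 2 and 0.00547 without miR-21-/- replicate 2. Adora2b, an adenosine receptor, was at 7.21 ± 1.29 and 12.1 ± 2.03 CPM (0.67, adjusted p = 0.00421, and 0.00481 with a pseudocount of 10, where the difference of 0.36 was under the fold change limit). The call of Adora2b was kept in 2 of the 8 fits that left out a sample, those without WT replicate 1 or miR-21-/- replicate 3.

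**Figure D4:**
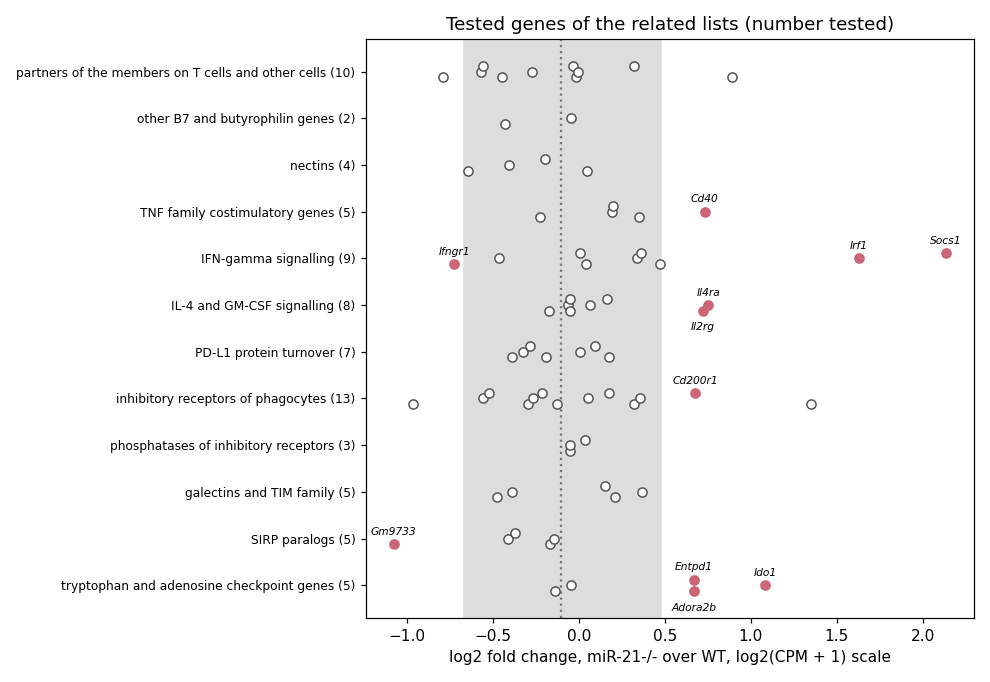
Log2 fold change, miR-21-/- over WT, of each tested gene of the 12 related lists (points, red and named where past the threshold). The number tested stands beside each list, the gray band spans the 5th to 95th percentile of all tested genes (-0.67 to 0.48) and the dotted line is their median. Of the 11 named genes, Irf1 and Socs1 lie farthest to the right, and Gm9733 and Ifngr1 lie to the left.

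Among 13 tested inhibitory receptors of phagocytes, Cd200r1 alone passed (32.5 ± 4.64 and 52.7 ± 8.22 CPM, 0.68, adjusted p = 0.00303), and its adjusted p was 0.00609 without the trend and 0.0171 with no filter on low values, and the call was kept only without WT replicate 4 or miR-21-/- replicate 1 when samples were left out. With the main settings no gene passed among the 10 tested partners of the 10 genes (median -0.15), the 2 other B7 and butyrophilin genes (median -0.24), the 4 nectins (median -0.30), the 7 genes of PD-L1 protein turnover (median -0.19), the 3 phosphatases (median -0.05) or the 5 galectin and TIM genes (median 0.15). Some partners passed in other fits, such as Ceacam1 without WT replicate 4 (-0.64, adjusted p = 0.00112) and Cd226 without WT replicate 3 (1.05, adjusted p = 0.00388). Since Cd226 was tested only because of its miR-21-/- values, nothing is drawn from its call. Of each list without a called gene, only the gene with the highest mean CPM is given, Cd47 for the partners (above). For the other lists, in the same order, these were Vsir, which encodes the B7 protein VISTA (688 ± 62.7 and 510 ± 28.4 CPM, -0.43, adjusted p = 0.00218), Nectin4 (33.8 ± 2.13 and 25.2 ± 0.97 CPM, -0.41, adjusted p = 0.000975), Spop, the adaptor of a ubiquitin ligase that acts on PD-L1 (160.2 ± 8.76 and 181 ± 6.47 CPM, 0.17, adjusted p = 0.0332), Ptpn6 (395 ± 49.8 and 380 ± 30.5 CPM, -0.05, adjusted p = 0.701) and Lgals3 (489 ± 31.6 and 635 ± 106 CPM, 0.36, adjusted p = 0.0233). Vsir and Nectin4 differed under the fold change limit. The SIRP paralogs, with 1 of 5 lower, had a median of -0.37. Vtcn1 and Btn1a1 are listed at the floor in all samples.

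The T cell receptors of these ligands, chosen for mention after their values were seen, were near the bottom of the measured range. None passed the threshold. Cd28 was at 3.30 ± 0.35 and 2.16 ± 0.30 CPM without overlap (-0.44, adjusted p = 0.0100) and Ctla4 at 3.71 ± 1.21 and 1.71 ± 0.66 CPM (-0.79, adjusted p = 0.0260). Icos was at 3.60 ± 0.78 and 2.17 ± 0.97 CPM (-0.57, adjusted p = 0.0512) and Pdcd1 at 2.00 ± 0.73 and 2.11 ± 1.21 CPM (-0.02, adjusted p = 0.968). Of the receptors of PVR, Cd226 was at 0.606 ± 0.398 and 1.97 ± 0.71 CPM without overlap (0.89, adjusted p = 0.00745), Tigit at 1.52 ± 0.50 and 1.53 ± 0.63 CPM (-0.0036, adjusted p = 0.990), and Cd96, which was under the filter, at 0.311 ± 0.146 and 0.888 ± 0.568 CPM. Cd226 passed the filter on low values only through its miR-21-/- values. T cell markers summed to 22.5 to 42.2 CPM in WT and 11.3 to 45.5 CPM in miR-21-/- samples, with Cd4 lower (16.6 ± 10.0 and 2.19 ± 1.15 CPM, -2.35, adjusted p = 0.00206) and the other 7 not past the threshold. Of the 8 T cell markers 6 were above 0, with a median of 0.27, and Cd8a, chosen after its values were seen, was at 1.92 ± 0.41 and 6.71 ± 3.66 CPM without overlap (1.28, adjusted p = 0.00804). Of the other cell types, the sums of neutrophil markers (769 to 1168 CPM in WT and 574 to 747 CPM in miR-21-/-) and of epithelial or LLC markers (18.8 to 24.8 and 12.7 to 17.9 CPM) did not overlap between the groups. Taken singly, 1 of 6 tested neutrophil markers and 1 of 3 tested epithelial or LLC markers did not overlap. The sums of NK cell markers (0.986 to 1.63 and 0.832 to 2.25 CPM) and of endothelial markers (153 to 304 and 203 to 292 CPM) overlapped. The part of these cell types in the levels of the 10 genes was not tested. No marker gene was at the floor in all samples.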

How the data were processed

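TAMs from LLC tumors of 4 WT and 4 miR-21-/- mice were profiled by RNA-Seq from Kapa mRNA libraries. The authors deposited CPM values, raised by 0.0001, for 53247 genes in all 8 samples. The submitters' processing notes name STAR, Partek 7.0 and mm10, and the counting rule and strand setting are not given in the sources used here. All sample columns were used. From the CPM, log2(CPM + 1) was modelled on genotype with limma (version 3.58.1, R 4.3.3, lmFit and eBayes with trend). The 13850 genes tested averaged 1 or more per 1e+06 of the column totals. Past the threshold means a fold change over 1.5 and a p, adjusted by Benjamini-Hochberg over all tested genes, not above 0.005. Balances were compared by exact permutation of the 8 samples. The script was tested on simulated data.

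Depth was 20.2 to 33.4 times 1e+06 reads. Between 72.7% and 73.7% of low values (up to 20 reads) were whole reads within 0.02 reads, so reads were not recovered and no count test was run. Precision is limited by 4 samples a group.

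The genes named are the 10 genes, the 2 tested genes on either side of each one that passed the threshold, all genes of the related lists past it, and the highest by mean CPM of a list with none past. Jak2, the T cell receptors and single marker genes are named outside this rule, after their values were seen. The 10 genes and the lists were chosen with earlier results of these data known, and a gene of the lists is not reported here. Exon lengths and 3′ UTRs are from GENCODE vM21 (97.1% of matched genes have the same start in the table), and promoters and the miRNA from RefSeq (GRCm38.p6). Coordinates follow the table, and its ends were set back by 1 base to match the annotation. Figures were drawn with matplotlib 3.10.9 from tables made with pandas 2.3.3 in Python 3.11.15. Tried as alternatives were pseudocounts of 0.1 and 10, filters of 0 and 5 per 1e+06, quantile normalization, the median of ratios, eBayes without trend, arrayWeights, a replicate block, other limits, and leaving out each sample.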

Additional observations from a re-analysis of the deposited data

Results flagged for a closer look

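In 26 groups of 4 values (the 10 genes and the 3 balances in each genotype), 1 had a sample far from the others. The balance Cd80 minus Cd86 in WT replicate 2 was -2.01, and its gap to the nearest WT sample was 0.888 of the range of the WT samples, more than Dixon's 95% critical value for 4 samples allows. Chance alone flags about 5% of such groups. Without this sample the balance differed between the genotypes by -0.60 in place of -0.47.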

How the results depend on the processing

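Cd274 and Pdcd1lg2 passed the threshold under all 11 other settings and in all 8 fits that left out a sample (1.47 to 1.72 and 2.77 to 2.93 in those fits), and with a pseudocount of 10 the value of Pdcd1lg2 was 1.96. None of the 10 genes changed direction under any of these settings. The number of the 10 genes past the threshold was 4, and 3 with a pseudocount of 10, no filter, quantile normalization or the median of ratios. It was 2 to 3 when a sample was left out. The number of tested genes past the threshold was 986, and became 1982 with no fold change limit, 452 with a pseudocount of 10 and 515 with no filter. For the balances, Pdcd1lg2 minus Cd274 was 0.43 with a pseudocount of 10 and 1.16 to 1.38 with a sample left out. Cd80 minus Cd86 was -0.47 with a pseudocount of 10 (exact p = 0.0286) and -0.60 to -0.42 with a sample left out. Havcr2 minus Lgals9 was 0.53 to 0.86 with a sample left out. The cause of these changes was not tested. Count tests were not run, since whole reads were not recovered. Depth limits genes under a few CPM, such as Ido1 in WT samples.

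The replicate numbers do not pair the samples. Deviations of same-numbered samples correlated at -0.14 to 0.22, and 1 of 4 WT samples correlated best with its own number. With a replicate block, 922 genes and the same number, 4, of the 10 genes passed the threshold, and no call among the 10 changed. The balances stay at 1.27 for Pdcd1lg2 minus Cd274 and 0.70 for Havcr2 minus Lgals9 with the replicate block, both with an exact p of 0.125, the smallest that 4 pairs allow.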
